A study of Mus musculus with 9 samples.

Results

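The 42 genes described here make sterols and fatty acids, move and store sterols, or control these pathways through the sterol regulatory element-binding proteins (SREBPs). They were chosen by mouse symbol from a fixed list and all 42 were found among the 55401 gene IDs counted. They fall into 20 genes of sterol synthesis, 5 of SREBP and its regulators, 7 of sterol uptake, transport, storage and efflux, and 10 of fatty acid synthesis. Of these, 41 passed the filter on low counts; the exception was Abcg1, a sterol exporter, which had at most 0.0739 CPM (reads scaled to library size) in any library and was listed at 0 in all 6 derivative libraries.

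Poly(A) RNA was sequenced from NP53, a mouse cell line of diffuse midline glioma. Gcontrol is NP53 with the wild-type genotype, and G1C7 and G2C9 are derivatives of NP53 labelled as TIM-3 knockouts, with 3 libraries in each of the 3 groups. TIM-3, encoded by Havcr2, restrains T cells as a surface receptor, and the study asked how its loss affects the tumour-forming behaviour of this line. All groups were grown in medium with fetal bovine serum, a source of lipoprotein cholesterol. The labels give no treatment or time, and leave unsaid whether a derivative is 1 clone and whether the replicates were grown separately. The p-values therefore measure the spread among these replicates, which may be technical.

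Cells sense cholesterol in the membrane of the endoplasmic reticulum. When it is scarce, SCAP escorts SREBP to the Golgi, where proteases release a fragment that enters the nucleus and switches on the genes of sterol and fatty acid synthesis; when sterol is ample, INSIG proteins hold SCAP and SREBP back. SREBP2 (Srebf2) acts mainly on sterol genes and SREBP1 (Srebf1) mainly on fatty acid genes. Oxysterols and other sterol intermediates activate LXR, a nuclear receptor that switches on genes of sterol export such as Abca1. In the brain cholesterol is made locally, because plasma lipoproteins do not cross the blood-brain barrier.

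The libraries held 50110129 to 56035382 reads in genes, both mates of a pair being counted. Havcr2 had 74, 58 and 60 reads in Gcontrol, 55, 6 and 66 in G1C7 and 39, 30 and 28 in G2C9, so its transcript was read in every library; gene counts do not show whether the coding sequence is cut. Olig1 and Olig2, which define the oligodendrocyte lineage, were at 0 in all 9 libraries. Of the other lineage markers, Cspg4 fell from 43.6 ± 4.72 CPM (mean ± SD, n = 3) in Gcontrol to 1.30 ± 0.341 in G1C7 and 4.27 ± 1.04 in G2C9 (edgeR adjusted p = 3.45e-05 and 1.57e-04), while Pdgfra rose in both (log2 fold changes 0.63 and 0.85, adjusted p = 0.0427 and 0.016). Among 4 markers of neural progenitors, Nes (0.38) and Vim (0.30) rose and Pax6 (-1.78) fell in G1C7, and the 4 did not pass in G2C9. Markers of hepatocytes summed to at most 0.234 CPM, with Ttr and Cyp7a1 at 0 in all libraries. In bulk RNA fewer expressing cells and less RNA per cell cannot be told apart.

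Over all genes, a library of each derivative was unlike its companions: G1C7 replicate 2 and G2C9 replicate 3. Within G1C7, counts of replicates 1 and 3 differed by a chi-square of 8.19 per degree of freedom, and those of replicate 2 from either by 275 and 284; in G2C9 these values were 10.5, and 177 and 170.5 with replicate 3, and between Gcontrol libraries 4.71 to 13.7. Saa3, an acute-phase protein, was at 39.5, 596 and 41.0 CPM in the G1C7 libraries, at 132, 134 and 1944 in G2C9 and at 179, 182 and 168 in Gcontrol. Summed collagen and matrix markers of fibroblasts were at 7990 CPM in G1C7 replicate 2 and 8433 in G2C9 replicate 3, at 2720 to 3664 in the other derivative libraries and at 5625 to 5898 in Gcontrol. Fabp4, which carried nearly all of the summed adipocyte markers, was at 2.96, 2.73 and 2.65 CPM in Gcontrol, 0.748, 8.995 and 0.731 in G1C7 and 1.21, 0.898 and 8.01 in G2C9. Both libraries were the highest of the 9 in these measures, and the labels give no batch or date that sets them apart. Each count of members called against Gcontrol is therefore also given without these libraries, a choice made after seeing the data. The part of these differences in cell state or mixture in the results was not tested.

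Enzymes of sterol synthesis passed the test upward in both derivatives, among them Msmo1, Fdft1 and Sc5d in each. Of 20 members, 7 rose and 1 fell in G1C7 against Gcontrol, where 8.77% of all 15659 tested genes rose and 8.73% fell (edgeR quasi-likelihood test, Benjamini-Hochberg adjusted p under 0.05). In G2C9, 3 rose and the other 17 did not pass, where 6.25% of all genes rose and 7.22% fell. The median log2 fold change of the 20 was 0.47 in G1C7 and 0.08 in G2C9, beside 0.02 and 0.01 over all genes tested. Both comparisons share the Gcontrol libraries. Over all 41 tested members, every G1C7 library was above every Gcontrol library in 18 and below in 4, and 43.0% of all genes had such a separation in either direction; for G2C9 the members numbered 16 and 8, beside 43.3%. Without G1C7 replicate 2 and G2C9 replicate 3, 16 of the 20 rose and 1 fell in G1C7 (26.4% and 27.9% of all genes), and 10 rose and 3 fell in G2C9 (25.4% and 27.6%).

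**Figure D1:**
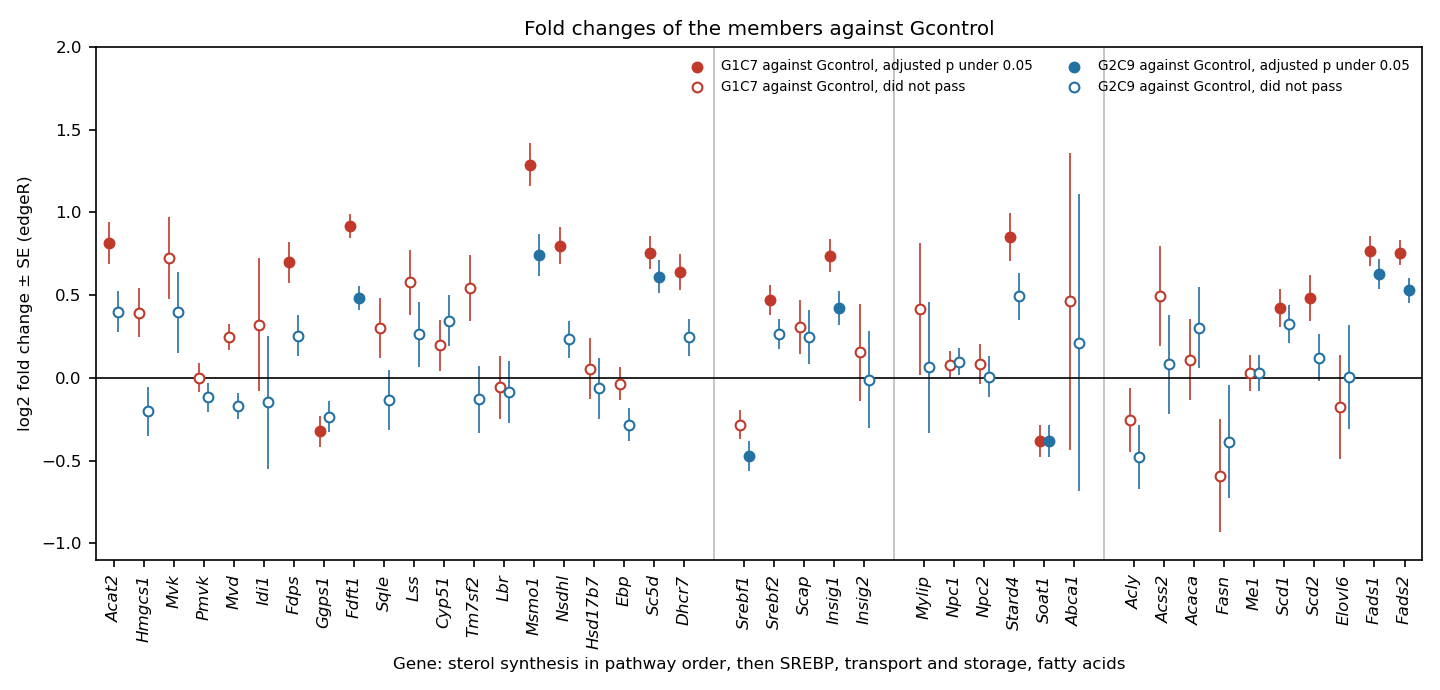
Log2 fold change against Gcontrol (y axis, edgeR estimate ± SE) of the 41 tested members (x axis), with sterol synthesis in the order of the pathway, for G1C7 in red and G2C9 in blue; filled points passed the test. The highest points are Msmo1, at 1.29 in G1C7 and 0.74 in G2C9, and the points below 0 that passed are Ggps1, Soat1 and Srebf1.

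Msmo1 (methylsterol monooxygenase, ENSMUSG00000031604.10, chromosome 8, 64718139 to 64733792), which starts the removal of the C4 methyl groups from the sterol ring, had the largest fold change of the 41 in each derivative. It stood at 72.6, 83.0 and 74.0 CPM in Gcontrol, 199, 162 and 199.7 in G1C7 and 134, 141 and 109 in G2C9. Every derivative library lay above every Gcontrol library, and every G1C7 library above every G2C9 library. Msmo1 rose in G1C7 by 1.29 ± 0.13 on the log2 scale (edgeR adjusted p = 5.31e-04) and in G2C9 by 0.74 ± 0.13 (adjusted p = 0.00667).

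Fdft1 (squalene synthase, ENSMUSG00000021273.11, chromosome 14, 63145150 to 63179578), the first enzyme committed to sterols, stood at 76.6, 80.5 and 76.6 CPM in Gcontrol, 144, 151 and 146 in G1C7 and 107, 115 and 104 in G2C9. The 3 groups did not overlap, and it was as high in G1C7 replicate 2 as in the other G1C7 libraries. Against Gcontrol it was 0.92 ± 0.07 higher on the log2 scale in G1C7 (edgeR adjusted p = 2.00e-04) and 0.48 ± 0.07 higher in G2C9 (0.00373). Of its exon bases in the annotation used for counting, 18.8% overlap Ctsb on the opposite strand, and reads there were dropped because strand was not used in counting. Sc5d, the lathosterol desaturase near the end of the pathway, stood at 119.7, 126 and 118 CPM in Gcontrol, 217, 177 and 222 in G1C7 and 187, 193 and 177 in G2C9. All derivative libraries were above all Gcontrol libraries, with log2 fold changes by edgeR of 0.76 ± 0.10 (adjusted p = 0.00181) for G1C7 and 0.61 ± 0.10 (adjusted p = 0.00537) for G2C9.

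SREBP acts through short elements near the start sites of its targets, often beside CCAAT and GC boxes bound by NF-Y and Sp1. RefSeq promoter windows on GRCm38.p6, from 250 bases before to 50 after the start site, matched 33 of the 42 members, with 42 windows. Fdft1, Fdps, Sqle, Stard4, Npc1, Abcg1, Scd1, Scd2 and Fads1 had no window and were not searched. The element TCACNCCAC (N any base, either strand) was in the window of 1 of the 33, Hmgcs1, against 1.39% of the 10808 tested genes with a window. Its shorter form CACNCCAC, which lies within it, was in 3 of 33 (Acat2, Hmgcs1 and Insig1) against 7.56%. The CCAAT box (CCAAT, or ATTGG on the other strand) was in 27 of 33 against 42.9%, and the GC box GGGCGG in 28 of 33 against 67.6%. A match describes these letters only, and other variants of the element were not searched. The Hmgcs1 window is shown as the 1 with the full element, and those of Msmo1, Insig1 and Sc5d as members that rose in both derivatives. Each is written 5′ to 3′ on the strand of the gene, with TCACNCCAC and CCAAT boxes of either strand in capitals.
Hmgcs1 (chr13:119690101-119690400, plus strand): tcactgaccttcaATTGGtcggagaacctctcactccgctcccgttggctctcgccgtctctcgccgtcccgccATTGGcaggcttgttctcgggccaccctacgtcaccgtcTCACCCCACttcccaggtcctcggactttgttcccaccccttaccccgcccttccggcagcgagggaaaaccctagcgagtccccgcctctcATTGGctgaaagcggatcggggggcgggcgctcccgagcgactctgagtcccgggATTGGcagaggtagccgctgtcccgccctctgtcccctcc
Msmo1 (chr8:64733529-64733828, minus strand): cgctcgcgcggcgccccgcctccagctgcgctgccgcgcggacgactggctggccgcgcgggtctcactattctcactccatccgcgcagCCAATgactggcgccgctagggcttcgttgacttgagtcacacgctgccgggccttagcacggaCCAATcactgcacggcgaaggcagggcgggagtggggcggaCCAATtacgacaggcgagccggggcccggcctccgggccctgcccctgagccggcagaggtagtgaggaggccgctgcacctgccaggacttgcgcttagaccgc
Insig1 (chr5:28071162-28071461, plus strand): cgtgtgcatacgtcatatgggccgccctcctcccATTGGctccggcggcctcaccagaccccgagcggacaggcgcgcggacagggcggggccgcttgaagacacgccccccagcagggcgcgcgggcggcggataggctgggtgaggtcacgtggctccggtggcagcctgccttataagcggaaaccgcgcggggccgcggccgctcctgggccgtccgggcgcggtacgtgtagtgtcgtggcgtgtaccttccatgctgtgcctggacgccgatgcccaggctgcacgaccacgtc
Sc5d (chr9:42264251-42264550, minus strand): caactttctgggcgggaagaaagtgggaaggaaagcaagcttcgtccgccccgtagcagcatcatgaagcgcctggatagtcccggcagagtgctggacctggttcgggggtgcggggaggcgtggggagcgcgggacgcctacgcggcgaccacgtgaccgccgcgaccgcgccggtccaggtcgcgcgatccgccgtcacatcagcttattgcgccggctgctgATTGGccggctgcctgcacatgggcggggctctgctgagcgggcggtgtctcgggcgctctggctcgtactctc
In Hmgcs1 the element TCACCCCAC begins 137 bases before the start site, with 4 CCAAT boxes in the window. Msmo1, with no full element in this window, has 3 CCAAT boxes, and Insig1 and Sc5d have 1 each. Hmgcs1 itself stood at 101.2, 111 and 101.2 CPM in Gcontrol, 148, 111 and 153 in G1C7 and 99.5, 97.6 and 75.4 in G2C9 and passed in neither comparison (edgeR adjusted p = 0.108 and 0.438).

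In G1C7, 4 more enzymes of sterol synthesis passed the edgeR test upward that did not pass in G2C9. Acat2, which joins acetyl-CoA units at the entry of the pathway, stood at 75.8, 75.9 and 72.3 CPM in Gcontrol, 135, 111 and 148 in G1C7 and 107, 103 and 85.7 in G2C9, with log2 fold changes of 0.82 ± 0.13 (adjusted p = 0.00343) and 0.40 ± 0.12 (adjusted p = 0.0681). Nsdhl, which acts after Msmo1 in C4 demethylation, stood at 30.4, 31.0 and 31.2 CPM in Gcontrol, 57.5, 44.9 and 58.7 in G1C7 and 36.7, 38.1 and 33.9 in G2C9, with 0.80 ± 0.11 (adjusted p = 0.00231) and 0.23 ± 0.11 (adjusted p = 0.222). In both genes all libraries of both derivatives were above Gcontrol, whichever side of the threshold the test fell. Fdps, farnesyl diphosphate synthase, stood at 9.43, 9.70 and 10.4 CPM in Gcontrol, 16.1, 15.3 and 16.6 in G1C7 and 11.4, 13.4 and 10.4 in G2C9, with 0.70 ± 0.12 (adjusted p = 0.00614) and 0.26 ± 0.12 (adjusted p = 0.22). Dhcr7, which makes cholesterol from 7-dehydrocholesterol, stood at 52.6, 50.5 and 54.6 CPM in Gcontrol, 86.0, 73.4 and 86.5 in G1C7 and 57.8, 57.8 and 71.2 in G2C9, with 0.64 ± 0.11 (adjusted p = 0.00561) and 0.24 ± 0.11 (adjusted p = 0.192). Fdps shares 26.7% of its exon bases with Gm43738 on the same strand, where reads were dropped.

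Ggps1, which makes geranylgeranyl diphosphate and so leads away from sterols, was the 1 member of this group that fell. It stood at 41.6, 42.7 and 38.3 CPM in Gcontrol, 31.6, 35.9 and 30.4 in G1C7 and 34.9, 36.0 and 33.4 in G2C9, and fell by 0.32 ± 0.09 on the log2 scale in G1C7 (adjusted p = 0.0436 by edgeR). The call was lost without any 1 of 7 libraries, the adjusted p reaching 0.151 without Gcontrol replicate 1. Its tested neighbours within 5 Mb on chromosome 13 had a median log2 fold change of -0.44 in G1C7 and -0.47 in G2C9, below the -0.32 and -0.23 of Ggps1 itself.

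The other 12 members of sterol synthesis did not pass in either comparison with Gcontrol. Their log2 fold changes ran from -0.06 (Lbr, a sterol reductase of the nuclear envelope) to 0.72 (Mvk, mevalonate kinase) in G1C7, and from -0.28 (Ebp, the sterol isomerase) to 0.40 (Mvk) in G2C9. Several were split by library. Mvk stood at 38.2, 39.6 and 42.001 CPM in Gcontrol, 76.5, 42.05 and 79.4 in G1C7 and 57.7, 60.5 and 39.4 in G2C9, so that the libraries that stood apart were near Gcontrol and the others well above it. Idi1, which interconverts the isopentenyl units, stood at 32.1, 37.3 and 32.0 CPM in Gcontrol, 52.8, 19.4 and 54.6 in G1C7 and 37.0, 37.4 and 17.2 in G2C9, and in it the same libraries were the lowest of all 9. Sqle, the squalene epoxidase and a rate-controlling step, stood at 249, 259 and 248 CPM in Gcontrol, 357, 225 and 349 in G1C7 and 248, 250.004 and 191 in G2C9; G1C7 replicates 1 and 3 were its highest libraries. Without both libraries, Mvk rose in G1C7 and in G2C9 (log2 fold changes 0.97 and 0.57, edgeR adjusted p = 4.97e-11 and 8.36e-08), while Idi1 (0.67, adjusted p = 7.61e-08) and Sqle (0.49, adjusted p = 7.54e-09) rose in G1C7.

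**Figure D2:**
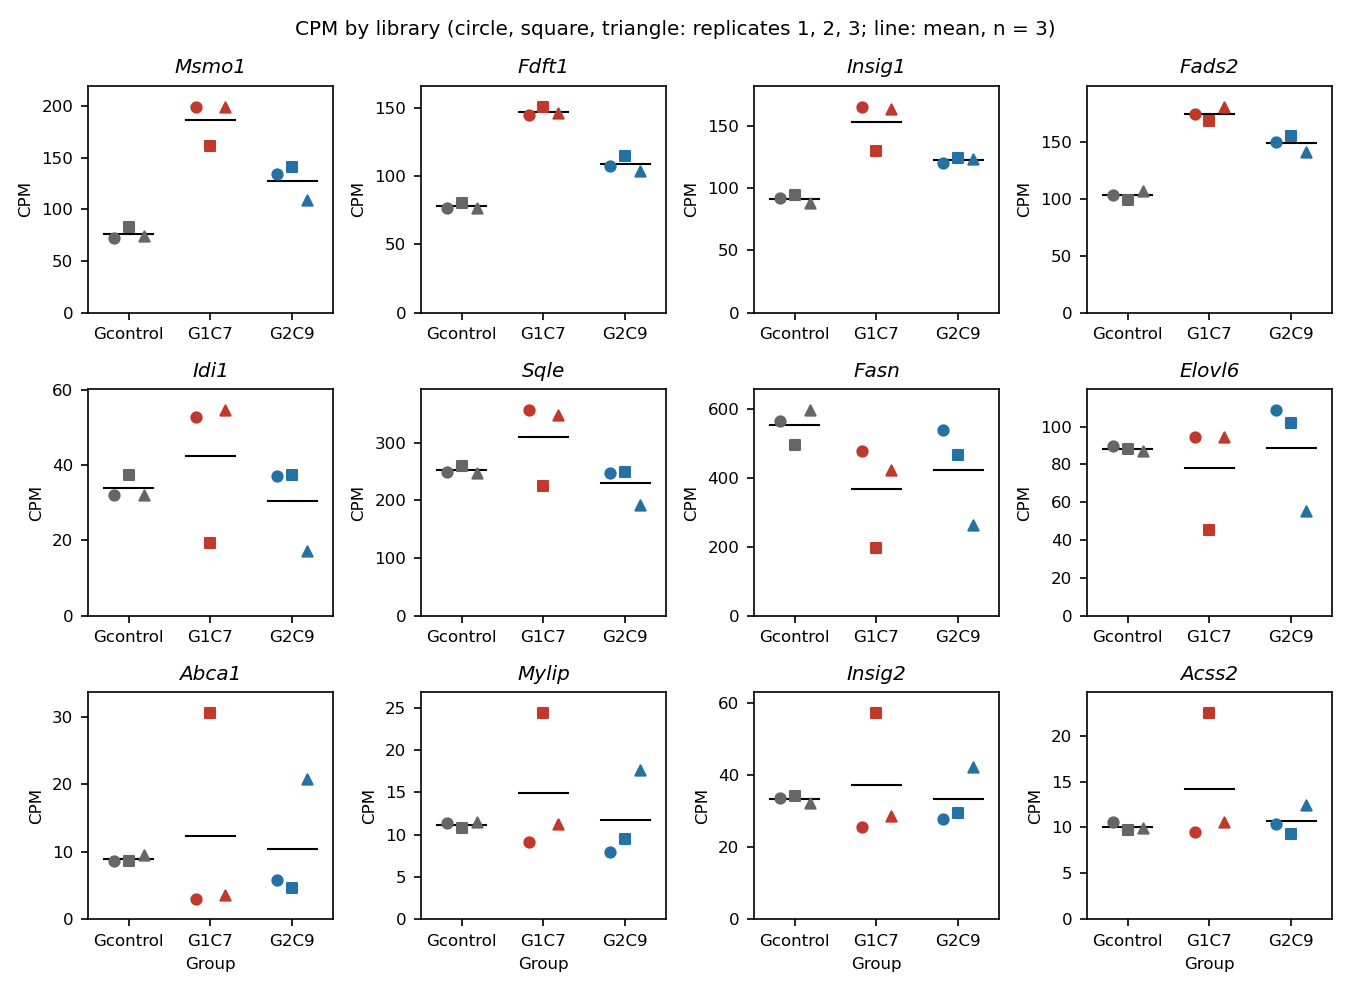
Scaled reads (CPM, y axis) of 12 members in the 3 libraries of each group (x axis), with circle, square and triangle for replicates 1, 2 and 3 and a line at the group mean. In the upper row all derivative libraries are above Gcontrol; in the middle row G1C7 replicate 2 (square) and G2C9 replicate 3 (triangle) are the lowest of their groups, and in the lower row they are the highest.

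Between the derivatives, 3 members were higher in G1C7 than in G2C9 and 0 lower, where 1.71% of all genes were higher and 1.65% lower, 3.36% together. DESeq2 and limma-voom each called 0 lower as well. Mvd, which makes isopentenyl diphosphate, stood at 29.3, 31.2 and 31.0 CPM in Gcontrol, 37.5, 35.3 and 35.7 in G1C7 and 26.7, 26.2 and 28.4 in G2C9, so its G1C7 libraries lay above and its G2C9 libraries below all Gcontrol libraries. The difference was 0.42 ± 0.08 on the log2 scale (adjusted p = 0.0248 by edgeR). Fdft1 (0.44 ± 0.07, adjusted p = 0.0156) and Nsdhl (0.57 ± 0.11, adjusted p = 0.0304) were the other two. Msmo1 did not pass (0.55 ± 0.13, adjusted p = 0.0575), nor did Hmgcs1, the enzyme before the rate-limiting reductase (0.59 ± 0.15, adjusted p = 0.0748). Without both libraries that stood apart, 25 members were higher and 3 lower, where 14.8% and 12.5% of all genes were. The log2 difference was above 0 in 18 of 20 members of sterol synthesis, with a median of 0.41 beside 0.01 over all genes. None of the 3 calls was kept in all alternatives fixed for these results: with only G1C7 and G2C9 in the fit the adjusted p was 0.161 for Mvd, 0.136 for Fdft1 and 0.180 for Nsdhl, and each call was also lost when replicate 1 or 3 of G1C7, 1 or 2 of G2C9, or 1 or 3 of Gcontrol was left out.

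Of the 5 genes of SREBP and its regulators, 2 rose in G1C7 and the other 3 did not pass, and 1 rose and 1 fell in G2C9; of all genes 8.77% rose and 8.73% fell in G1C7, and 6.25% and 7.22% in G2C9. With G1C7 replicate 2 and G2C9 replicate 3 left out, 3 rose (Srebf2, Scap and Insig1) and 2 fell (Srebf1 and Insig2) in each derivative, beside 26.4% and 27.9% of all genes in G1C7 and 25.4% and 27.6% in G2C9. Insig1 (ENSMUSG00000045294.11, chromosome 5, 28071363 to 28078662), a retention factor that is itself an SREBP target, stood at 92.0, 94.8 and 88.3 CPM in Gcontrol, 166, 130.1 and 164 in G1C7 and 120.2, 124 and 124 in G2C9. The 3 groups did not overlap. By edgeR its log2 fold change was 0.74 ± 0.10 (adjusted p = 0.00209) for G1C7 and 0.42 ± 0.10 (adjusted p = 0.0275) for G2C9; the call in G2C9 was lost without any 1 of the G2C9 or Gcontrol libraries (the adjusted p reached 0.125 when Gcontrol replicate 3 was left out). Srebf2 stood at 373, 358 and 395 CPM in Gcontrol, 546, 483 and 532 in G1C7 and 477, 456 and 419 in G2C9, with log2 fold changes of 0.47 ± 0.09 (adjusted p = 0.00922) and 0.26 ± 0.09 (adjusted p = 0.0919). All derivative libraries were above Gcontrol, though the call in G1C7 was lost without Gcontrol replicate 1 (adjusted p = 0.0583) or replicate 2 (0.0564).

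Srebf1, unlike Srebf2, had lower levels in the derivatives. It stood at 91.4, 84.1 and 95.1 CPM in Gcontrol, 75.4, 74.6 and 72.6 in G1C7 and 63.5, 60.1 and 71.4 in G2C9, with every derivative library below every Gcontrol library. It fell by 0.47 ± 0.09 on the log2 scale in G2C9 (edgeR adjusted p = 0.00992), a call lost when replicate 2 of G2C9 or replicate 1 or 3 of Gcontrol was left out (highest adjusted p 0.0567), and had -0.28 ± 0.09 in G1C7 (adjusted p = 0.0617). Its neighbours on chromosome 11 were low as well, with a median log2 fold change of -0.32 within 5 Mb in G2C9 and -0.20 in G1C7. Scap, the escort protein, did not pass in either derivative. Insig2, the other retention factor, stood at 33.7, 34.3 and 32.4 CPM in Gcontrol, 25.7, 57.2 and 28.7 in G1C7 and 27.9, 29.4 and 42.3 in G2C9. It was highest in the libraries that stood apart, and its remaining derivative libraries were below Gcontrol; it did not pass (adjusted p = 0.763 and 0.989).

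Sterol uptake, transport, storage and efflux held 6 tested members, of which 1 rose and 1 fell in G1C7 (8.77% and 8.73% of all genes), and 1 fell in G2C9 (7.22%). With the libraries that stood apart left out, Stard4 rose in each derivative, while 2 members fell in G1C7 (Soat1 and Abca1) and 4 in G2C9 (these and Mylip and Npc2). Of all genes 26.4% rose and 27.9% fell there in G1C7, and 25.4% rose and 27.6% fell in G2C9. The 1 of 6 that rose is below these shares in each derivative, and the 2 of 6 that fell in G1C7 are near them. Stard4, a carrier of cholesterol between membranes and an SREBP target, stood at 52.1, 54.7 and 52.2 CPM in Gcontrol, 103, 82.7 and 100.7 in G1C7 and 84.0, 80.6 and 59.1 in G2C9. All derivative libraries were above Gcontrol, with log2 fold changes of 0.85 ± 0.14 in G1C7 (edgeR adjusted p = 0.00523) and 0.49 ± 0.14 in G2C9 (adjusted p = 0.0546). Soat1, which esterifies cholesterol for storage in droplets, stood at 153, 158 and 153 CPM in Gcontrol, 123, 104 and 129 in G1C7 and 119.9, 124 and 112 in G2C9, all derivative libraries being lower. By edgeR its log2 fold change was -0.38 ± 0.10 (adjusted p = 0.0268) for G1C7 and -0.38 ± 0.10 (adjusted p = 0.0309) for G2C9. Both calls of Soat1 were lost without any 1 Gcontrol library (the adjusted p reached 0.105 in G1C7 and 0.129 in G2C9, both without replicate 2) and without replicate 1 of either derivative; that in G2C9 was also lost without G2C9 replicate 2 or 3.

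Abca1, which exports cholesterol to lipoproteins and is a standard LXR target, differed more between libraries of 1 group than between groups. It stood at 8.61, 8.70 and 9.54 CPM in Gcontrol, 2.94, 30.6 and 3.51 in G1C7 and 5.76, 4.61 and 20.7 in G2C9. The libraries that stood apart were above all Gcontrol libraries and the other 4 derivative libraries below all of them, and with all libraries it did not pass (log2 fold change 0.46 ± 0.90, edgeR adjusted p = 0.767 in G1C7; 0.21 ± 0.90, 0.915 in G2C9). With those libraries left out it fell by 1.47 on the log2 scale (edgeR adjusted p = 2.43e-08) for G1C7 and by 0.78 (adjusted p = 2.64e-05) for G2C9. Mylip, a ubiquitin ligase that removes lipoprotein receptors and another LXR target, stood at 11.3, 10.8 and 11.4 CPM in Gcontrol, 9.13, 24.4 and 11.3 in G1C7 and 7.94, 9.47 and 17.6 in G2C9, with the same libraries highest. Npc1 and Npc2, which release cholesterol from lysosomes, did not pass, with log2 fold changes of 0.08 and 0.08 in G1C7 and 0.10 and 0.01 in G2C9.

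Of 10 members of fatty acid synthesis, 4 rose in G1C7 (8.77% of all genes) and 2 in G2C9 (6.25%), all of them desaturases; the others did not pass. With the libraries that stood apart left out, 5 rose in G1C7 (the 4 desaturases and Acaca), while 5 rose (Acaca, Scd1, Elovl6, Fads1 and Fads2) and 1 fell (Acly) in G2C9; of all genes 26.4% rose in G1C7, and 25.4% rose and 27.6% fell in G2C9. Fads1 and Fads2, the delta-5 and delta-6 desaturases of polyunsaturated fatty acids, lie side by side on chromosome 19 and rose in both derivatives. Fads2 stood at 103, 99.4 and 107 CPM in Gcontrol, 175, 168 and 181 in G1C7 and 150.3, 156 and 141 in G2C9, with log2 fold changes of 0.76 ± 0.08 (edgeR adjusted p = 5.50e-04) and 0.53 ± 0.08 (adjusted p = 0.00312). Fads1 stood at 109.9, 109 and 119 CPM in Gcontrol, 184, 212 and 178 in G1C7 and 168, 172 and 182 in G2C9, with 0.77 ± 0.09 (adjusted p = 0.00112) and 0.63 ± 0.09 (adjusted p = 0.00315). In both genes every derivative library was above every Gcontrol library, those that stood apart included, while the tested genes within 5 Mb had medians between -0.08 and -0.05.

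Scd1 and Scd2, the stearoyl-CoA desaturases that make monounsaturated fatty acids, rose in G1C7. Scd1 stood at 226, 226 and 231 CPM in Gcontrol, 282, 347 and 287 in G1C7 and 265, 266 and 326 in G2C9 (0.42 ± 0.12 on the log2 scale in G1C7, edgeR adjusted p = 0.0379; 0.33 ± 0.12 in G2C9, 0.103). Scd2 stood at 791, 783 and 807 CPM in Gcontrol, 1004, 1367 and 959 in G1C7 and 813, 824 and 954 in G2C9 (0.48 ± 0.14, adjusted p = 0.0478; 0.12 ± 0.14, 0.644). In both genes the library that stood apart was the highest of its group. The call of Scd1 was lost without any 1 of 7 libraries (highest adjusted p 0.125, leaving out Gcontrol replicate 1) and that of Scd2 without any 1 of 6 (highest 0.145, leaving out Gcontrol replicate 2); without G1C7 replicate 2 the change of Scd2 was 0.31. The Scd genes are close paralogs, and reads that map to both were dropped.

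The enzymes that build the saturated chain did not pass in either derivative. Fasn, fatty acid synthase, stood at 563, 495 and 596 CPM in Gcontrol, 477, 198 and 423 in G1C7 and 539, 465 and 263 in G2C9 (edgeR adjusted p = 0.276 and 0.525). Elovl6, which lengthens palmitate, stood at 89.6, 88.2 and 87.0 CPM in Gcontrol, 94.4, 45.3 and 94.7 in G1C7 and 109, 102 and 55.2 in G2C9, and Acaca, the acetyl-CoA carboxylase that feeds Fasn, at 102, 93.8 and 112 CPM in Gcontrol, 129.6, 78.0 and 125 in G1C7 and 157, 138 and 86.4 in G2C9. In all 3 the libraries that stood apart were the lowest of the 9. Acly, which makes cytosolic acetyl-CoA from citrate, stood at 430.4, 418 and 435 CPM in Gcontrol, 418, 249 and 408 in G1C7 and 338, 328 and 256 in G2C9, lowest in the same libraries. Acss2, which makes acetyl-CoA from acetate, was the reverse, at 22.5 CPM in G1C7 replicate 2, 12.4 in G2C9 replicate 3 and between 9.31 and 10.6 in the other 7 libraries. Me1, malic enzyme, had log2 fold changes of 0.03 in both derivatives. With G1C7 replicate 2 and G2C9 replicate 3 left out, Acaca rose in G1C7 and G2C9 (log2 fold changes 0.31 and 0.52, adjusted p = 0.00181 and 2.84e-05), and Fasn still did not pass (adjusted p = 0.0589 and 0.338).

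**Figure D3:**
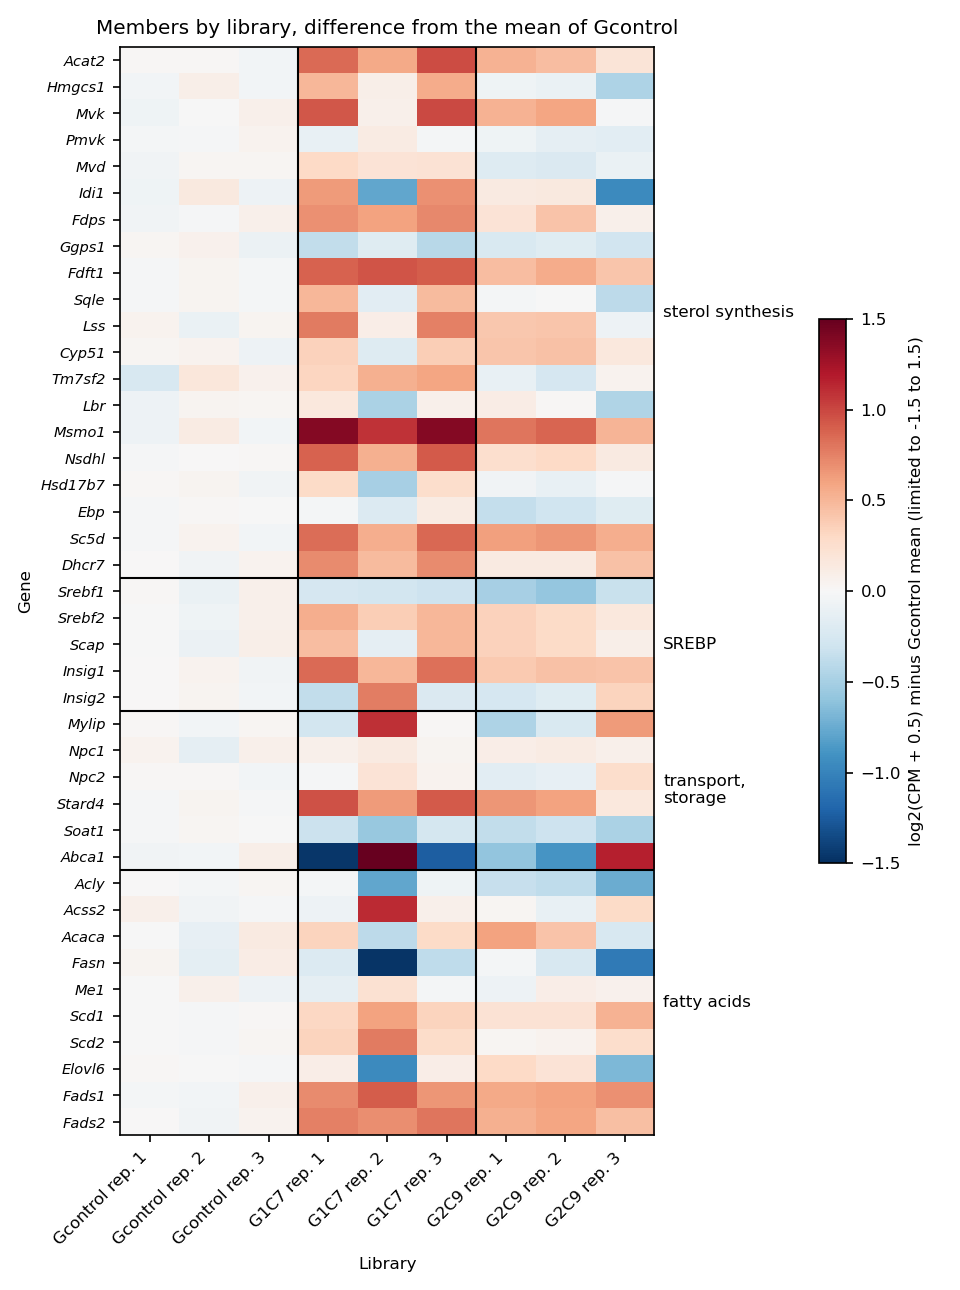
Each row is 1 of the 41 tested members and each column 1 library; colour gives log2(CPM + 0.5) minus the mean of the Gcontrol libraries, limited to -1.5 to 1.5. Msmo1, Fdft1, Sc5d, Fads1 and Fads2 are red in all 6 derivative libraries, while Idi1, Elovl6 and Abca1 have the opposite colour in G1C7 replicate 2 and G2C9 replicate 3 to that in the other derivative libraries.

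Within G1C7, 10 of the 41 members were over 1.5-fold lower in replicate 2 than in both other libraries and 4 were over 1.5-fold higher; over all tested genes these shares were 14.3% and 20.6%. The 10 were Mvk, Idi1, Sqle, Lss, Hsd17b7, Scap, Acly, Acaca, Fasn and Elovl6, and the 4 were Insig2, Mylip, Abca1 and Acss2. Within G2C9, 4 members were lower in replicate 3 by the same measure (Idi1, Acaca, Fasn and Elovl6) and 2 higher (Mylip and Abca1), where 7.09% and 16.1% of all genes were. These 4 and 2 genes were all among those of G1C7 replicate 2. Over all tested genes, the deviations of G1C7 replicate 2 and G2C9 replicate 3 from their group means correlated at 0.68. Such sharing is therefore not particular to the members, and the share of all genes with this overlap was not counted. Relative to the mean of the other libraries of its group, Abca1 was at 9.50 times in G1C7 replicate 2 and 3.998 times in G2C9 replicate 3, and Idi1 was at 0.361 and 0.462 times. Of the members that rose in both derivatives, Fdft1 was at 1.04 and 0.935 times, Fads2 at 0.947 and 0.924 and Msmo1 at 0.812 and 0.794. Acute-phase genes moved with these libraries, with a median of 6 tested genes 1.43 and 2.41 above Gcontrol on the log2 scale; their part in the values above was not tested.

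Levels of the 41 tested members were also taken per length (RPKM, CPM per kilobase of exon, mean of Gcontrol). The length holds every annotated exon base of the gene, which can exceed that of 1 transcript and lower the value. Among the 41, Scd2 was first at 145, followed by Acly at 81.0, Srebf2 at 52.2 and Fasn at 50.4. Next were Cyp51 (lanosterol demethylase) at 48.6, Scd1 at 46.5 and Sqle at 45.4. At the other end were Acss2 at 0.994, Abca1 at 0.864 and Tm7sf2, a sterol reductase, at 0.654. Among the SREBPs, Srebf2 stood above Srebf1, which was at 16.0 RPKM. Lbr, which shares its reductase activity with Tm7sf2, was at 24.4 RPKM. Of their exon bases, 12.1% in Tm7sf2 and 10.7% in Lbr overlap other genes, where reads were dropped. By this measure Scd2 stood above Scd1 and Lbr above Tm7sf2.

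The changes of the members were set beside those of their chromosomal neighbours. Among the members that rose in both derivatives, Msmo1, Sc5d and Fdft1 had neighbours within 5 Mb whose median log2 fold changes, in that order, were 0.17, 0.17 and 0.13 for G1C7 and 0.22, 0.18 and 0.20 for G2C9, below their own changes. Fdps rose in G1C7 while its neighbours on chromosome 3 had a median of -0.42. Acat2 lay among genes with a median of 0.24 in G1C7, and the other tested genes of chromosome 17 had a median of 0.41. Soat1 was lower than its neighbours, which had medians of -0.11 in G1C7 and -0.09 in G2C9. Copy number was not measured, and its part in these values was not tested.

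**Figure D4:**
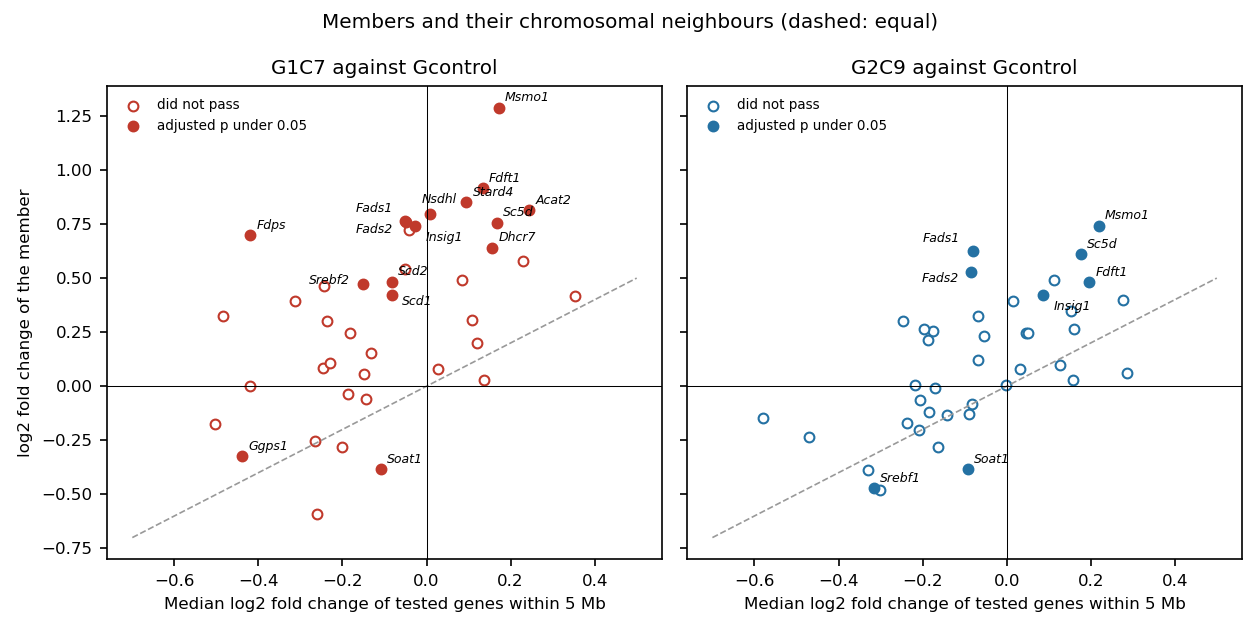
Log2 fold change of each tested member (y axis) against the median log2 fold change of the other tested genes within 5 Mb of it (x axis), for G1C7 (left) and G2C9 (right); filled points passed the test and the dashed line marks equal values. Msmo1 and Fdps lie well above the line in G1C7, and Soat1 and Srebf1 lie below it in G2C9.

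The surrounding lipid pathways were read from 8 further lists, beside 17.5% of all genes called in G1C7 (8.77% higher, 8.73% lower) and 13.5% in G2C9 (6.25% higher, 7.22% lower). Among 10 genes of SREBP proteolysis and sterol-regulated degradation, 7 had log2 fold changes below 0 in each derivative. Mbtps2, the site-2 protease that releases SREBP, rose in G1C7 (0.30 ± 0.07 on the log2 scale, edgeR adjusted p = 0.0256). In G2C9 Mbtps2 did not pass (0.22, edgeR adjusted p = 0.0844). Mbtps1, the site-1 protease, passed in neither, at -0.10 in G1C7 and -0.19 in G2C9 (edgeR adjusted p = 0.376 and 0.112). Vcp, an ATPase that extracts ubiquitinated proteins, fell in G1C7 (-0.42, edgeR adjusted p = 0.0217). Of 10 genes of the isoprenoid branch, 2 rose and 1 fell in G1C7 and 1 rose in G2C9, where 17.5% and 13.5% of all genes were called. Nus1, a subunit of the enzyme for dolichol, rose in both (0.43 ± 0.12, adjusted p = 0.0337; 0.72 ± 0.12, 0.00484), and Rabggtb, a subunit of the enzyme that prenylates Rab proteins, fell in G1C7 (-0.79, adjusted p = 5.14e-04).

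Among 9 genes of LXR, oxysterol and retinoid X receptors, 1 rose and 1 fell in G1C7 and 1 fell in G2C9, near the 17.5% and 13.5% of all genes called. Cyp7b1, which hydroxylates oxysterols, stood at 15.3, 15.3 and 15.5 CPM in Gcontrol, 1.35, 5.83 and 1.39 in G1C7 and 1.11, 1.18 and 3.91 in G2C9 and fell in both (-2.43, edgeR adjusted p = 0.0386; -2.89, 0.0253). Nr1h2, which encodes LXR-beta, stood at 39.9, 40.3 and 42.9 CPM in Gcontrol, 42.4, 64.9 and 42.4 in G1C7 and 38.1, 38.9 and 51.7 in G2C9, highest in the libraries that stood apart, and Nr1h3, which encodes LXR-alpha, was at or below 0.635 CPM in all 9. Of 14 tested genes of other lipoprotein and sterol transport, 2 rose and 1 fell in G1C7 and 1 rose and 2 fell in G2C9, again beside 17.5% and 13.5%. Scarb1, a receptor for high-density lipoprotein, rose in G1C7 (0.48 ± 0.09, adjusted p = 0.00773), and Gramd1b, a cholesterol carrier from the plasma membrane, fell from 3.27 ± 0.246 CPM (mean ± SD, n = 3) to 0.0489 ± 0.0207 in G1C7 and 0.316 ± 0.200 in G2C9 (adjusted p = 2.91e-04 and 0.0016).

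Of 9 tested genes of lipid droplets and lipolysis, 3 rose and 1 fell in G1C7 and 1 rose and 1 fell in G2C9, where 17.5% and 13.5% of all genes were called in either direction. Plin2, the main coat protein of droplets, stood at 259.8, 267 and 262 CPM in Gcontrol, 139, 159.5 and 149 in G1C7 and 111, 107 and 124 in G2C9 and fell in both (-0.82 ± 0.09, edgeR adjusted p = 8.15e-04; -1.20 ± 0.09, 1.81e-04). It was low in every derivative library. Plin4 rose in both, from a mean of 1.99 CPM in Gcontrol to 4.69 in G1C7 and 4.05 in G2C9 (log2 fold changes 1.24 and 1.03, edgeR adjusted p = 0.00866 and 0.0219). Pnpla2, the triglyceride lipase, rose in G1C7 (0.92 ± 0.22, adjusted p = 0.0232). Of 14 genes of triglyceride and phospholipid synthesis, 4 rose and 3 fell in G1C7 (8.77% and 8.73% of all genes) and 2 fell in G2C9 (7.22%). Gpam and Agpat2, acyltransferases of the first steps, fell in both (-0.42 and -0.32 for Gpam, -0.49 and -0.57 for Agpat2), and Cds1, a CDP-diacylglycerol synthase, fell in G1C7 from 0.509 ± 0.0580 to 0.0122 ± 0.0211 CPM (mean ± SD, n = 3; adjusted p = 0.00755). The 4 that rose in G1C7 were Agpat1, Lpin2, Chka and Cds2. Agpat1 (0.32, edgeR adjusted p = 0.0241) and Cds2 (0.53, adjusted p = 0.00739) had means of 110 and 51.9 CPM in Gcontrol, where Agpat2 had 15.3. Of 17 tested genes of other fatty acid elongation and activation, 3 rose in G1C7 (8.77% of all genes) and 4 in G2C9 (6.25%). Mid1ip1, which activates acetyl-CoA carboxylase, was among those that rose in both (0.58 ± 0.10 and 0.47 ± 0.10, edgeR adjusted p = 0.00528 and 0.0155). Of 16 tested genes of fatty acid oxidation and PPAR, 1 rose and 3 fell in G1C7 and 1 fell in G2C9, where 17.5% and 13.5% of all genes were called. Pparg, a nuclear receptor of fat storage, fell from 1.58 ± 0.0214 CPM to 0.173 ± 0.116 in G1C7 and 0.319 ± 0.0470 in G2C9 (adjusted p = 0.00204 and 0.00819), and Slc25a20, the mitochondrial acylcarnitine carrier, fell in G1C7 (-1.51, adjusted p = 0.00203). The 1 that rose in G1C7 was Ppard, with a mean of 116 CPM in Gcontrol and 141 in G1C7 (0.28, edgeR adjusted p = 0.0423). In G2C9 it did not pass (0.10, adjusted p = 0.503).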

How the data were processed

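Stranded poly(A) libraries were sequenced as pairs of reads, per the labels' protocols. The authors deposited whole-number counts for each gene. These were made with featureCounts 1.6.0 and the GENCODE vM25 annotation of GRCm38, per the file headers; STAR 2.6.1c and FastQC 0.11.8 are named in the submitters' processing notes. No option for pairs, strand or multi-mapping reads appears in the headers, so mates were counted singly, strand was ignored, and reads in several genes or places were dropped. Symbols came from GENCODE vM21 (55141 of 55401 IDs matched). Members and lists were chosen with earlier results of these data known. The naming rule covers all 42 members and, in each further list, up to 2 highest and 2 lowest called genes. Which of the latter appear, and Nr1h2, Nr1h3 and Mbtps1, were chosen after their values were seen. A result of 1 of these lists is not reported here.

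filterByExpr kept 15659 genes, and all 9 libraries entered 1 edgeR 4.0.16 quasi-likelihood fit (R 4.3.3, TMM factors 0.978 to 1.03, 6 residual degrees of freedom). Calls use p-values adjusted by Benjamini-Hochberg over all genes, at 0.05. SE was taken as the size of the log2 fold change divided by the root of F. CPM use TMM-scaled library sizes. Alternatives were DESeq2 1.42.0, limma-voom (limma 3.58.1), RLE factors, other filters, only the 2 groups compared, a replicate block and each library left out. The procedure was also run on simulated counts with no library set apart, which does not cover that feature of these data. Promoter windows are from RefSeq (GRCm38.p6).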

Additional observations from a re-analysis of the deposited data

Results flagged for a closer look

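The change against Gcontrol differed between G1C7 and G2C9 for 3 members of sterol synthesis, by the edgeR test of G1C7 against G2C9. The log2 difference was 0.42 for Mvd, 0.44 for Fdft1 and 0.57 for Nsdhl, higher in G1C7 in each. In all 3 genes the 3 G1C7 libraries lay above the 3 G2C9 libraries, which held for 14 of the 41 tested members; of all genes tested, 18.2% had no overlap in either direction. The differences of the other 38 members did not pass.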

How the results depend on the processing

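Of the members called, 11 of 16 in G1C7, 5 of 8 in G2C9 and 0 of 3 between the derivatives kept their call in every alternative listed for them, and no called member changed sign. Those kept in both derivatives were Msmo1, Fdft1, Sc5d, Fads1 and Fads2. The count of members higher than Gcontrol was 14 in G1C7 and 6 in G2C9. Shares of all genes called were counted with all libraries and without both that stood apart, and not in the other settings. The counts of members in those settings therefore have no background beside them. With each library left out in turn, the count of members higher ran from 11 to 22 in G1C7 and from 5 to 12 in G2C9, the highest in both without G1C7 replicate 2. Members lower (2 and 2) ran from 0 to 3 and from 0 to 5, highest without G2C9 replicate 3 in G1C7 and without G1C7 replicate 2 in G2C9. The count was 0 in both without Gcontrol replicate 1 or 3, in G1C7 also without Gcontrol replicate 2, G1C7 replicate 1 or G2C9 replicate 1, and in G2C9 also without G2C9 replicate 2. Members higher in G1C7 than in G2C9 (3) ran from 0 to 11, highest without G1C7 replicate 2. With no filter on low counts, members lower numbered 0 in G1C7 and 1 in G2C9 and none was higher between the derivatives. With only the 2 groups compared, these were 1, 4 and 0. With DESeq2, 9 members were higher in G1C7 than in G2C9. Without both libraries that stood apart, members higher numbered 25 and 19 (26.4% and 25.4% of all genes) and members lower 5 and 10 (27.9% and 27.6%). Between the derivatives 25 were then higher and 3 lower (14.8% and 12.5% of all genes). With the replicate block, members lower were 0 in G1C7 and 1 in G2C9 and 0 were higher between the derivatives. Members higher were then 12 and 5. Deviations of same-numbered libraries of G1C7 and G2C9 from their group means correlated at 0.41, -0.51 and -0.56. Those of G1C7 replicate 2 and G2C9 replicate 3 correlated at 0.68, and those of same-numbered derivative and Gcontrol libraries at -0.02 to 0.05. The libraries that stood apart carry different numbers in the derivatives, so the values between derivatives cannot show whether the numbers pair the libraries. Of the member values not called (25, 33 and 38 by comparison), 10, 9 and 15 changed sign in a setting other than the one without both libraries, none of them as a call. Without both libraries 6 values changed sign and were called: Insig2 (-0.29) and Abca1 (-1.47) in G1C7, Mylip (-0.36), Npc2 (-0.14) and Abca1 (-0.78) in G2C9, and Abca1 between the derivatives (-0.69). Tests rest on 3 libraries per group, and on 2 in each derivative where the libraries that stood apart are left out.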
